A study of Arabidopsis thaliana with 6 samples.

Results

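The genes described here are 31 genes of the aliphatic glucosinolate pathway in Arabidopsis thaliana, taken by locus identifier from a list of pathway genes, out of the 38194 loci counted in each library. They comprise 9 genes of side-chain elongation, 10 of the core structure, 7 of side-chain modification, 3 transcription factors and 2 transporters. RNA was sequenced from 12-day-old seedlings of a 35S:GR-TCP5 line after 4 h in a dexamethasone solution (DEX, 3 libraries) or in a mock solution (MOCK, 3 libraries). The DEX solution is labelled as holding 10 mM dexamethasone, a dose whose unit is in doubt because micromolar doses are usual, and both solutions held 0.1% ethanol and 0.015% silwet. In this construct the viral 35S promoter drives TCP5, a CIN-class TCP transcription factor, fused to GR, the glucocorticoid receptor domain that binds dexamethasone and holds a fusion protein in the cytoplasm until the hormone is added. Every library carries the construct, so an effect of dexamethasone without it was not measured. No source used here states the accession of the line, the organs sampled or whether replicates were grown separately. The p-values therefore rest on library-to-library spread, which may be technical. The library names carry 2 run codes. Replicates 1 and 2 of both groups share one (run 1) and replicate 3 of both groups has the other (run 2).

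Aliphatic glucosinolates are sulfur-rich defence compounds of the cabbage family made from methionine. The methionine side chain is first lengthened in rounds of condensation, isomerisation and decarboxylation, the product is then turned into a core structure that carries glucose and sulfate, and the side chain is last oxidised or desaturated. MYB28, MYB29 and MYB76 are the transcription factors known to activate the pathway, and GTR1 and GTR2 carry finished glucosinolates into cells, which is needed for their movement between leaves, roots and seeds.

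The libraries held 33428836 to 76859163 exon counts, with both run 2 libraries shallower than those of run 1. TCP5 (AT5G60970) itself had 233, 263 and 964 TMM-scaled CPM (exon counts relative to library size) in DEX libraries 1, 2 and 3 and 323, 296 and 1177 CPM in MOCK libraries 1, 2 and 3, several times higher in run 2, and its log2 fold change of -0.31 ± 0.10 (SE) did not pass (adjusted p = 0.152, edgeR). The 6 listed photosynthetic markers had sums of 29098, 25625 and 24006 CPM in DEX libraries 1, 2 and 3 and 26422, 30230 and 26611 CPM in MOCK libraries 1, 2 and 3. All 6 had a log2 fold change below 0, against 49.3% of all genes tested, with a median of -0.11. The regulator of chloroplast genes GLK2 passed (-0.69, adjusted p = 0.0177, edgeR). Of 12 listed root markers, 10 were under 1 CPM in every run 1 library, and EXPA7 and PLT1 had 0 counts in all of these. Their sum, which PYK10 dominated, was 372, 306 and 1180 CPM in DEX libraries 1, 2 and 3 and 561, 723 and 3243 CPM in MOCK libraries 1, 2 and 3. Run 2 held far more root transcripts than run 1. In run 2 the DEX library had less than the MOCK library for 11 of the 12 markers, against 49.9% of all genes tested. Of the 8 root markers tested over both runs 7 had a log2 fold change below 0, with a median of -1.39, and PYK10 (-1.11, adjusted p = 0.0118) and PER64 (-2.32, adjusted p = 0.00899) were lower with DEX (edgeR). The part of these differences in the results below was not tested, and in bulk RNA fewer cells of a type and less RNA per cell cannot be told apart.

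DEX against MOCK asks which pathway transcripts differed after 4 h of dexamethasone in seedlings that carry 35S:GR-TCP5. The regulator MYB29, the transporter GTR2, the sulfotransferase SOT17 and the regulator MYB28 were lower with DEX, by 69.3%, 56.5%, 48.0% and 34.7%. The other 27 genes did not pass, but 28 of the 31 had a log2 fold change below 0, against 49.3% of all genes, and the median log2 fold change of the 31 was -0.48, against 0.00 over all genes. The test was edgeR's quasi-likelihood F-test over 21934 genes with run and treatment as terms and Benjamini-Hochberg adjustment at 0.05. It called 4.67% of all genes, 3.58% lower and 1.09% higher. At an unadjusted p under 0.05, 20 members were lower, against 11.8% of all genes, and 1 was higher, FMOGS-OX2. The number called depended on single libraries. It was 2 (MYB29 and GTR2) when DEX replicate 1 or 2 or MOCK replicate 1 or 2, the run 1 libraries, was left out. It was 16 when replicate 3 of DEX or of MOCK was left out. The share of all genes called lower was 3.87% without DEX replicate 1 and 0.977% without DEX replicate 2. Without MOCK replicate 1 it was 1.65% and without MOCK replicate 2 it was 0.958%. Without replicate 3 of DEX it was 2.14%, and without replicate 3 of MOCK 2.2%. DESeq2 called 17 lower and 1 higher, with 6.5% of all genes it tested lower. Limma-voom called 8 lower and 1 higher, with 4.59% of all genes lower. With the run left out of the model, edgeR called 0 members and 0 of all genes.

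**Figure D1:**
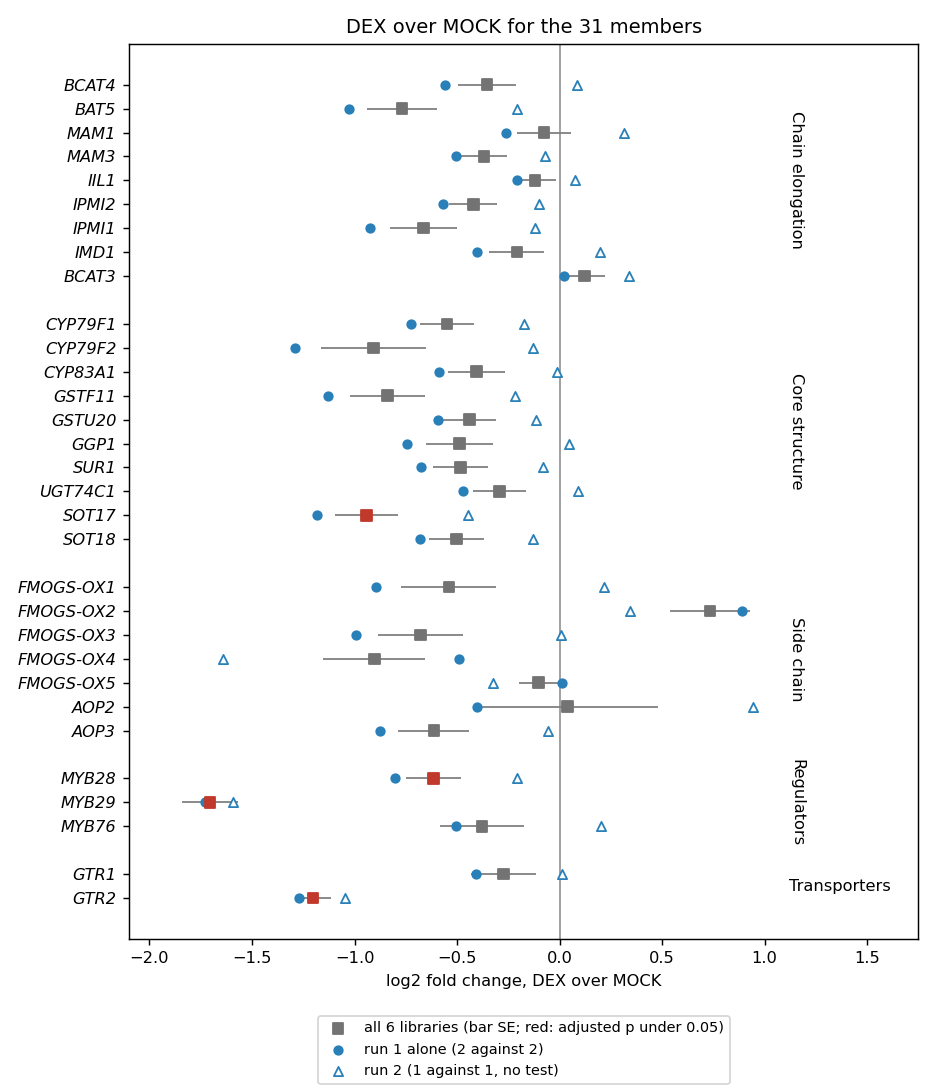
Log2 fold change (DEX over MOCK, x axis) of the 31 genes by role (y axis), as squares for the fit of all 6 libraries with bars of 1 SE, filled circles for run 1 alone and open triangles for the run 2 ratio of 1 library to 1. The red squares are MYB29, GTR2, SOT17 and MYB28, the squares of 28 genes lie left of 0, and the triangles of most enzymes lie closer to 0 than their circles.

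Among the regulators, MYB29 (AT5G07690, TAIR10.1 chr5:2446669-2448584, plus strand), which adds to the activation of aliphatic genes by MYB28, had 5.13, 6.05 and 1.3 CPM in DEX libraries 1, 2 and 3 and 20.3, 17.1 and 3.93 CPM in MOCK libraries 1, 2 and 3. In each run the DEX libraries were below the MOCK libraries, and the groups overlapped only because both treatments were far lower in run 2. Its log2 fold change was -1.70 ± 0.14 (SE, adjusted p = 0.00203, edgeR). MYB28 (AT5G61420, chr5:24689069-24691187, minus strand), regarded as the main activator of the pathway, had 68.9, 59.1 and 41.6 CPM in DEX libraries 1, 2 and 3 and 112, 113 and 48.0 CPM in MOCK libraries 1, 2 and 3. Both run 1 DEX libraries were well below the run 1 MOCK libraries, while in run 2 the libraries were close. The log2 fold change of MYB28 was -0.61 ± 0.14 (SE, adjusted p = 0.0448, edgeR), and it did not pass when any run 1 library was left out (adjusted p from 0.108 to 0.182), with the replicate block (0.0867) or with library totals as the only scaling (0.0587). MYB76 (AT5G07700), the third of these activators, had 4.11, 3.44 and 0.592 CPM in DEX libraries 1, 2 and 3 and 5.41, 5.35 and 0.515 CPM in MOCK libraries 1, 2 and 3, so the DEX libraries were lower in run 1 only. Its log2 fold change of -0.38 ± 0.20 (SE) did not pass (adjusted p = 0.374, edgeR).

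MYB29 and MYB76 are neighbours on chromosome 5, 1442 bases apart with 0 coding genes between them, and their longest transcripts were 80.8% identical over 969 aligned bases. The log2 ratio of MYB29 to MYB76 was 0.322, 0.812 and 1.14 in DEX libraries 1, 2 and 3 and 1.91, 1.67 and 2.93 in MOCK libraries 1, 2 and 3. Each DEX library was below each MOCK library, a mean difference of -1.41, which was -1.22 in run 1 and -1.79 in run 2. An exact two-sided permutation test over 20 splits gave p = 0.1, the smallest p that 3 against 3 allows, so none of the 7 close pairs compared could reach 0.05, and the splits took no account of the run. For this pair the adjusted p over the 7 was 0.467, and no pair is shown to differ or to be alike. The log2 ratio of MYB29 to MYB28 had a mean difference, DEX minus MOCK, of -1.08, which was -0.93 in run 1 and -1.39 in run 2 (exact permutation p = 0.2, adjusted 0.467).

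The transporter GTR2 (AT5G62680, chr5:25165137-25168060, minus strand) had 23.2, 22.8 and 39.0 CPM in DEX libraries 1, 2 and 3 and 55.4, 56.0 and 80.5 CPM in MOCK libraries 1, 2 and 3. All DEX libraries were below all MOCK libraries. Its log2 fold change of -1.20 ± 0.09 (SE, adjusted p = 0.00159, edgeR) ranged from -1.28 to -1.16 over the alternatives tried and passed in all of them except the model without the run. The same held for MYB29, with log2 fold changes from -1.77 to -1.60. GTR1 (AT3G47960, chr3:17697942-17700923, minus strand), a close relative that acts together with GTR2 in loading glucosinolates into the phloem, had 31.2, 22.4 and 98.5 CPM in DEX libraries 1, 2 and 3 and 32.4, 39.1 and 97.9 CPM in MOCK libraries 1, 2 and 3. Its groups overlapped, the run 2 libraries of both treatments were the highest, and its log2 fold change of -0.27 ± 0.16 (SE) did not pass (adjusted p = 0.413, edgeR). The transcripts of the pair were 80.1% identical over 1744 aligned bases, and the log2 ratio of GTR2 to GTR1 had a mean difference, DEX minus MOCK, of -0.92, which was -0.85 in run 1 and -1.06 in run 2 (exact permutation p = 0.2 over splits that ignore the run, adjusted 0.467). GTR2 shares 73 exonic bases and GTR1 382 with loci on the opposite strand, which unstranded reads cannot separate.

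**Figure D2:**
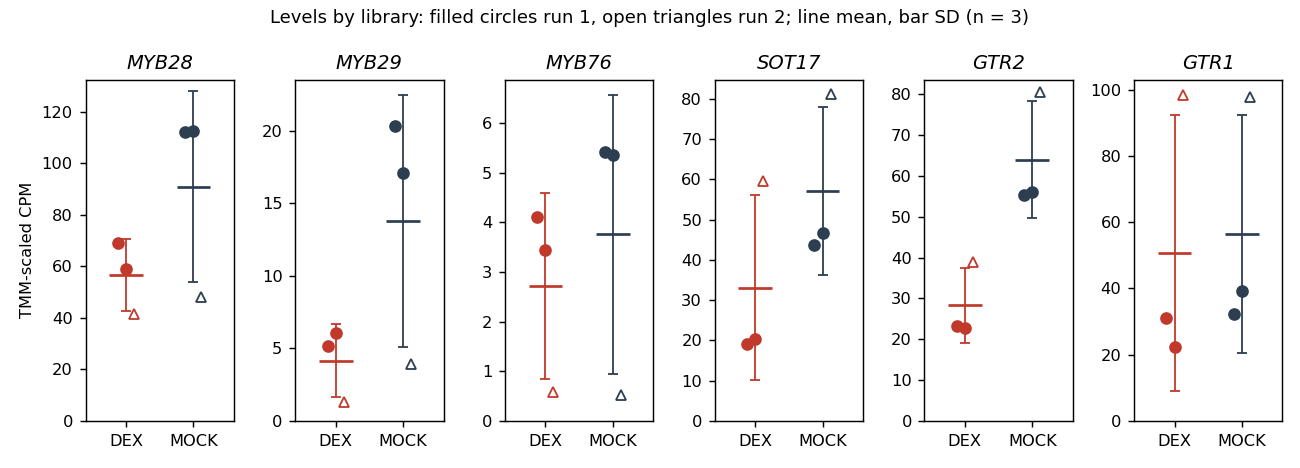
TMM-scaled CPM (y axis, linear from 0, own scale in each panel) of the 3 regulators, SOT17 and the 2 transporters in DEX and MOCK libraries (x axis), with filled circles for run 1, open triangles for run 2, and lines and bars for the mean and SD of 3. Within each run MYB29, SOT17 and GTR2 are lower with DEX, while MYB76 and GTR1 are close between treatments in run 2.

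The upstream sequences of the called regulators and of the transporter pair, of which 1 passed, are shown because TCP proteins bind GC-rich motifs. Each is the 250 bases before the annotated gene start in RefSeq TAIR10.1, 5′ to 3′ on the gene's strand, with motif matches in capitals. The accession of the line is not given, so its own sequence may differ from this reference. The same limit holds for the transcript identities given here. The motifs searched were GGNCC, the core of TCP sites, GTGGNCCC, the class II TCP site that holds that core, and CACGTG, the G-box bound by MYC factors, all on both strands.
MYB29, chr5:2446419-2446668, plus strand: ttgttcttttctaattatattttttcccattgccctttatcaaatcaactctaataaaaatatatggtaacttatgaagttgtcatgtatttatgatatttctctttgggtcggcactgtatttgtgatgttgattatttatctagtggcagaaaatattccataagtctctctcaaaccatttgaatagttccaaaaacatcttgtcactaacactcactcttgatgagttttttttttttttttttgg
MYB28, chr5:24691188-24691437, minus strand: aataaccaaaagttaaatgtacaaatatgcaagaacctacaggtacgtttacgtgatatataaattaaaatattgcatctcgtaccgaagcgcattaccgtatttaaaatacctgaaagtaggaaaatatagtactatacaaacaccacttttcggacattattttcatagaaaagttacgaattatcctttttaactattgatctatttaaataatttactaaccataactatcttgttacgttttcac
GTR2, chr5:25168061-25168310, minus strand: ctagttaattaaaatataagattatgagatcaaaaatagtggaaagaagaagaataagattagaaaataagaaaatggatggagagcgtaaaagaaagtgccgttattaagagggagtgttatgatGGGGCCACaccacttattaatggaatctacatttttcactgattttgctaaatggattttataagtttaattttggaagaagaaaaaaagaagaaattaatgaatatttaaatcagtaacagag
GTR1, chr3:17700924-17701173, minus strand: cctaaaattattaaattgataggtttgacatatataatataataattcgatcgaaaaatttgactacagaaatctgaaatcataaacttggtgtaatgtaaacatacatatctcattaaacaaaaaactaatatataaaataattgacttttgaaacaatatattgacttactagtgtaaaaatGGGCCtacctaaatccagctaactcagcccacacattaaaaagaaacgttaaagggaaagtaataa
In GTR2 the capitals mark a match to GTGGNCCC on the opposite strand that starts 124 bases before the gene start and includes a GGNCC core, and in GTR1 they mark a GGNCC match that starts 66 bases before it. The windows of MYB29 and MYB28 held none of the 3 motifs. Of 27443 coding genes, 0.67% held GTGGNCCC in this window, and GTR2 was the only member of 31 that did. GGNCC was held by 27.2% of all windows and 6 of 31 members (19.4%), and CACGTG by 6.49% of all windows and 3 of 31 members (9.68%). In the 1000 bases upstream, GGNCC was held by 60.1% of all genes and 18 of 31 members (58.1%), MYB28 and MYB29 among them, GTGGNCCC by 1.99% of all genes and GTR2 alone of the members, and CACGTG by 14.8% of all genes and 10 of 31 members (32.3%). A match describes the sequence and is not a measured binding site.

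Chain elongation begins with BCAT4, which removes the amino group of methionine, and BAT5, which carries the oxo acid into the plastid. The methylthioalkylmalate synthases MAM1 and MAM3 then add carbon, the isomerase made of IIL1 with the small subunits IPMI2 and IPMI1 and the dehydrogenase IMD1 complete each round, and BCAT3 can return the amino group. None of these 9 genes passed (0 lower and 0 higher by edgeR, 5 lower and 0 higher at an unadjusted p under 0.05, 4 lower by DESeq2 and 1 by limma-voom), 8 had a log2 fold change below 0, and the median was -0.35. Of all genes 3.58% were lower by edgeR, 11.8% at an unadjusted p under 0.05, 6.5% by DESeq2 and 4.59% by limma-voom. A log2 fold change below 0 was held by 49.3% of all genes. MAM1 (AT5G23010), which serves the early rounds, had 218, 201 and 119 CPM in DEX libraries 1, 2 and 3 and 250, 256 and 95.4 CPM in MOCK libraries 1, 2 and 3, a log2 fold change of -0.08 ± 0.13 (SE, adjusted p = 0.813, edgeR). The DEX libraries were lower in run 1 and higher in run 2. MAM3 (AT5G23020), which also serves the long chains, had 161, 154 and 179 CPM in DEX libraries 1, 2 and 3 and 227, 222 and 188 CPM in MOCK libraries 1, 2 and 3, a log2 fold change of -0.37 ± 0.11 (SE, adjusted p = 0.120, edgeR). All DEX libraries were below all MOCK libraries. The most negative values were those of BAT5, -0.77 ± 0.17 (adjusted p = 0.0541, edgeR), and of the small subunit IPMI1, -0.66 ± 0.16 (adjusted p = 0.0724), and the single value above 0 was that of BCAT3, 0.12 ± 0.10. MAM1 and MAM3 lie side by side and were 85.4% identical over 1458 aligned bases.

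The core genes convert the elongated amino acid in a fixed order. CYP79F1 and CYP79F2 make aldoximes, CYP83A1 oxidises them, the glutathione transferases GSTF11 and GSTU20 are thought to join glutathione, the peptidase GGP1 trims it, the lyase SUR1 splits off the thiol, UGT74C1 adds glucose, and the sulfotransferases SOT17 and SOT18 add the sulfate. All 10 had a log2 fold change below 0, from -0.94 to -0.29 with a median of -0.50, against 49.3% of all genes below 0. Of the 10, 1 passed, against 3.58% of all genes called lower. SOT17 (AT1G18590, chr1:6398531-6400029, plus strand) had 19.1, 20.5 and 59.6 CPM in DEX libraries 1, 2 and 3 and 43.6, 46.7 and 81.2 CPM in MOCK libraries 1, 2 and 3. In each run DEX was lower, and the groups overlapped because both run 2 libraries were higher than those of run 1. Its log2 fold change was -0.94 ± 0.15 (SE, adjusted p = 0.0191, edgeR), and leaving out any run 1 library ended the call (adjusted p from 0.0506 to 0.0891). SOT18, 82.4% identical to it over 1036 aligned bases, had a log2 fold change of -0.50 ± 0.14 (SE, adjusted p = 0.0829, edgeR).

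CYP79F1 (AT1G16410), which takes short-chain and long-chain substrates, had 189, 171 and 119 CPM in DEX libraries 1, 2 and 3 and 300, 298 and 133 CPM in MOCK libraries 1, 2 and 3. CYP79F2 (AT1G16400), which takes long-chain substrates, had 14.0, 11.9 and 54.3 CPM in DEX libraries 1, 2 and 3 and 30.5, 33.1 and 59.3 CPM in MOCK libraries 1, 2 and 3. Both were clearly lower with DEX in run 1 and close between treatments in run 2, while run 2 itself was lower than run 1 for CYP79F1 and higher for CYP79F2. Their log2 fold changes, -0.55 ± 0.13 (SE, adjusted p = 0.0554) and -0.91 ± 0.25 (SE, adjusted p = 0.130), did not pass (edgeR). The genes lie 1183 bases apart, were 90.6% identical over 1863 aligned bases and shared a stretch of 100 identical bases, so reads may have been split between them. GSTF11 had a log2 fold change of -0.84 ± 0.18 (SE, adjusted p = 0.0522, edgeR). All 934 of its exonic bases lie in exons of a locus on the opposite strand, AT3G03200, which was itself called lower (log2 fold change -0.84, adjusted p = 0.0326, edgeR). The library kit does not mark strand, so reads of these loci cannot be told apart.

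Side chains are S-oxygenated by the flavin monooxygenases FMOGS-OX1 to FMOGS-OX5 and then converted by AOP2 to alkenyl or by AOP3 to hydroxyalkyl forms. None of the 7 genes passed (0 by edgeR, 3 lower and 1 higher at an unadjusted p under 0.05, 3 lower and 1 higher by DESeq2, 1 lower and 1 higher by limma-voom), 5 had a log2 fold change below 0, and the median was -0.54. Of all genes 3.58% were lower by edgeR, 11.8% at an unadjusted p under 0.05, 6.5% by DESeq2 and 4.59% by limma-voom, and 49.3% were below 0. Higher were 1576 of 21934 at an unadjusted p under 0.05, 590 of 22386 by DESeq2 and 315 of 21934 by limma-voom. FMOGS-OX2 had 4.66, 4.53 and 1.72 CPM in DEX libraries 1, 2 and 3 and 2.43, 2.55 and 1.35 CPM in MOCK libraries 1, 2 and 3. It was the only member with both run 1 DEX libraries above both run 1 MOCK libraries, with a log2 fold change of 0.73 ± 0.19 (SE, adjusted p = 0.0757, edgeR). It lies in a cluster with FMOGS-OX3 and FMOGS-OX4, whose log2 fold changes were -0.68 ± 0.21 (adjusted p = 0.147) and -0.90 ± 0.25 (adjusted p = 0.0929). FMOGS-OX2 and FMOGS-OX3 were 86.4% identical over 1184 aligned bases. AOP3 had 157, 147 and 81.2 CPM in DEX libraries 1, 2 and 3 and 299, 264 and 84.4 CPM in MOCK libraries 1, 2 and 3, lower with DEX in run 1 and close in run 2, with a log2 fold change of -0.61 ± 0.17 (SE, adjusted p = 0.103, edgeR). AOP2 was at most 1.36 CPM in any library, and its log2 fold change of 0.04 ± 0.44 was the least precise of the 31. Arabidopsis accessions are known to differ in which of AOP2 and AOP3 they express.

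Per length, the most abundant transcripts were those of enzymes, and MYB29 and MYB76 were among the least abundant. GSTU20 averaged 410 TMM-scaled CPM per kb in DEX libraries and 571 in MOCK libraries, and BCAT4 averaged 203 in DEX libraries and 261 in MOCK libraries. MYB28 averaged 29.8 in DEX libraries and 47.9 in MOCK libraries on the same scale. MYB29 averaged 2.40 in DEX libraries and 7.95 in MOCK libraries, and MYB76 averaged 1.83 in DEX libraries and 2.53 in MOCK libraries. SOT18 averaged 54.2 in DEX libraries and 75.7 in MOCK libraries, above SOT17, with 22.0 in DEX libraries and 38.1 in MOCK libraries.

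**Figure D3:**
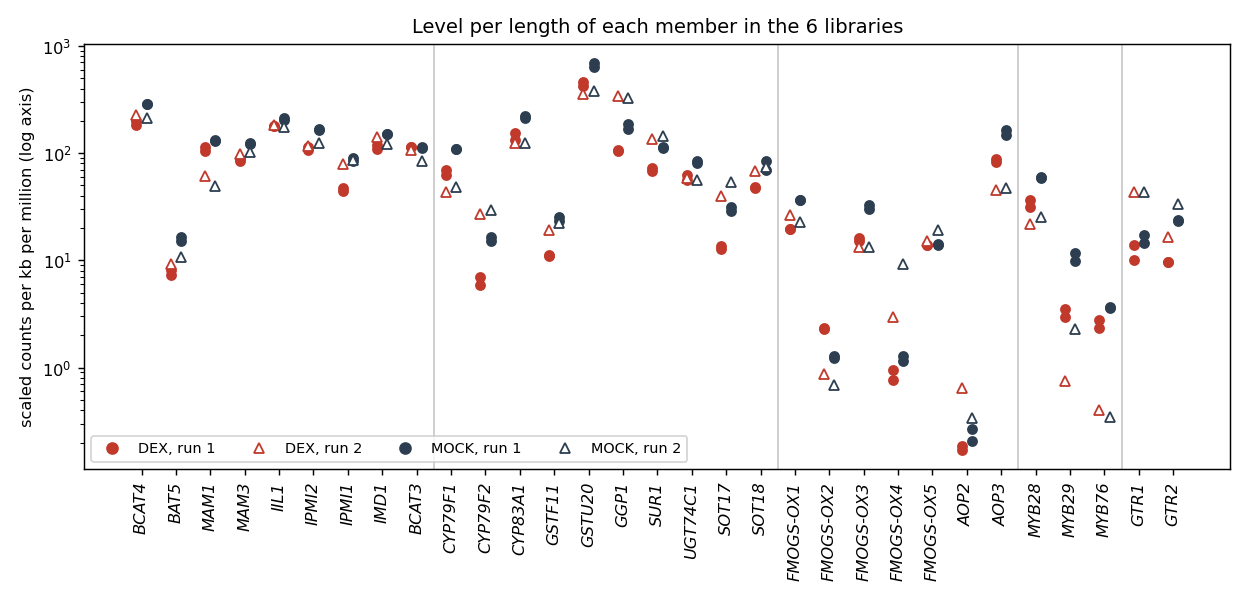
TMM-scaled CPM per kb of the deposited gene length (y axis, log scale) for each of the 31 genes (x axis, in order of role, grey lines between roles) in each library, with filled circles for run 1, open triangles for run 2, red for DEX and dark blue for MOCK. GSTU20 is the highest by mean in both treatments, AOP2 the lowest, and most filled red circles lie below the dark ones beside them.

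The runs were also read separately, with a test possible in run 1 only. In run 1 alone, 2 libraries against 2, edgeR called 16 of 31 members lower and 0 higher (23 lower and 1 higher at an unadjusted p under 0.05), against 2.43% and 0.748% of the genes tested there, with a median log2 fold change of -0.59 and 28 members below 0, against 48.1% of all genes. The 16 were BAT5, IPMI2 and IPMI1 of chain elongation, CYP79F1, CYP79F2, GSTF11, GGP1, SUR1, SOT17 and SOT18 of the core, FMOGS-OX1, FMOGS-OX3 and AOP3 of the side chain, MYB28, MYB29 and GTR2. The largest falls in run 1 were those of MYB29 (log2 fold change -1.73 ± 0.15 SE, adjusted p = 0.00553), CYP79F2 (-1.29 ± 0.12 SE, adjusted p = 0.00582), GTR2 (-1.27 ± 0.10 SE, adjusted p = 0.00397) and SOT17 (-1.18 ± 0.11 SE, adjusted p = 0.00553). Both run 1 DEX libraries lay below both run 1 MOCK libraries for 28 members, against 24.4% of all genes. In run 2, with 1 library against 1 and no test, 18 members were below MOCK with DEX and 13 above, against 49.9% of all genes below, and the median log2 ratio was -0.07. MYB29 had a run 2 log2 ratio of -1.59, GTR2 one of -1.05 and SOT17 one of -0.45, while FMOGS-OX4, at 6.57 CPM in DEX library 3 and 20.5 CPM in MOCK library 3, had one of -1.64. DEX was below MOCK in all 3 same-numbered pairs for 17 members, against 20.7% of all genes, and all DEX libraries were below all MOCK libraries for 7, against 4.65% of all genes. Within run 1 these pairs follow the library numbers only, because the crossed pairs correlated more.

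The difference between runs in the effect of DEX was itself tested as a run by treatment term. edgeR called 0 members and 0% of all genes, with adjusted p from 0.568 to 0.958 among the members. At an unadjusted p under 0.05, 20 of 31 members differed, against 6.55% of all genes, and the term was above 0 for 28 of 31 members, against 53.3% of all genes. Its values were 0.15 ± 0.33 for MYB29 and 0.23 ± 0.16 for GTR2, against 0.61 ± 0.20 for MYB28 and 1.17 ± 0.21 for CYP79F2 (log2, SE). The summed level of the 31 genes was 3511, 3298 and 3793 CPM in DEX libraries 1, 2 and 3 and 5062, 4981 and 3847 CPM in MOCK libraries 1, 2 and 3. The sums were close in run 2 and apart in run 1, a description with no test.

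Levels also differed between runs whatever the treatment. In run 2 over run 1, 9 members were higher and 10 lower, against 27.9% and 27.6% of all genes. All 3 regulators were lower in run 2, by 3.01 for MYB76, 2.19 for MYB29 and 0.92 for MYB28 on the log2 scale. Both transporters were higher in run 2, with log2 fold changes of 1.67 for GTR1 and 0.65 for GTR2. Of the enzymes, FMOGS-OX4 (2.40), CYP79F2 (1.51), GGP1 (1.3) and SOT17 (1.23) had the largest log2 rises, while AOP3 (-1.3), FMOGS-OX2 (-1.16), MAM1 (-1.11) and CYP79F1 (-0.87) had the largest falls (all with an adjusted p under 0.05, edgeR). The root markers moved with the run, with 6 of the 8 tested higher in run 2 and 0 lower (7 and 0 at an unadjusted p under 0.05, edgeR), and their part in these differences was not tested. The organs sampled are not given for either run.

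Intron counts, which can come from RNA not yet spliced, gave a readout of the same libraries from other reads. Some may come from exons left out of the deposited lengths, which for CYP79F1 was 2743 bases against 3272 in TAIR10.1. The origin of the intron counts was not tested. Of the 31 genes 25 had enough intron counts to be tested. SOT17, SOT18, IPMI1 and IPMI2 were not tested. Their exonic lengths in TAIR10.1 equal their gene spans, so that annotation gives them no intron. On introns edgeR called 3 members lower with DEX and 0 higher (15 lower and 0 higher at an unadjusted p under 0.05), against 0.616% and 0.323% of all genes tested on introns. The log2 fold change was below 0 for 22 of 25, against 49% of all genes, with a median of -0.56. MYB29 had 2, 12 and 0 intron counts in DEX libraries 1, 2 and 3 and 39, 69 and 2 in MOCK libraries 1, 2 and 3, a log2 fold change of -2.72 ± 0.63 (SE, adjusted p = 0.0483, edgeR). FMOGS-OX3 had 50, 94 and 27 intron counts in DEX libraries 1, 2 and 3 and 281, 283 and 43 in MOCK libraries 1, 2 and 3, a log2 fold change of -1.49 ± 0.24 (SE, adjusted p = 0.00522, edgeR). The third was GSTF11 (-1.27 ± 0.27 SE, adjusted p = 0.0298, edgeR), with the overlapping locus named above. In run 1 the DEX libraries of all 3 were far below the MOCK libraries. GTR2, with 10, 8 and 8 intron counts in DEX libraries 1, 2 and 3 and 22, 39 and 2 in MOCK libraries 1, 2 and 3, had a log2 fold change of -0.78 ± 0.62 (SE) that did not pass (adjusted p = 0.775, edgeR). MYB28 had an intron log2 fold change of 0.00 ± 0.42 (SE, adjusted p = 0.999, edgeR) on 31, 26 and 7 counts in DEX libraries 1, 2 and 3 and 37, 42 and 3 in MOCK libraries 1, 2 and 3. The intron counts of MYB28 were too few to tell whether they shared its exon difference (log2 fold change -0.61 ± 0.14 SE). SOT17 had 0 intron counts in every library.

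**Figure D4:**
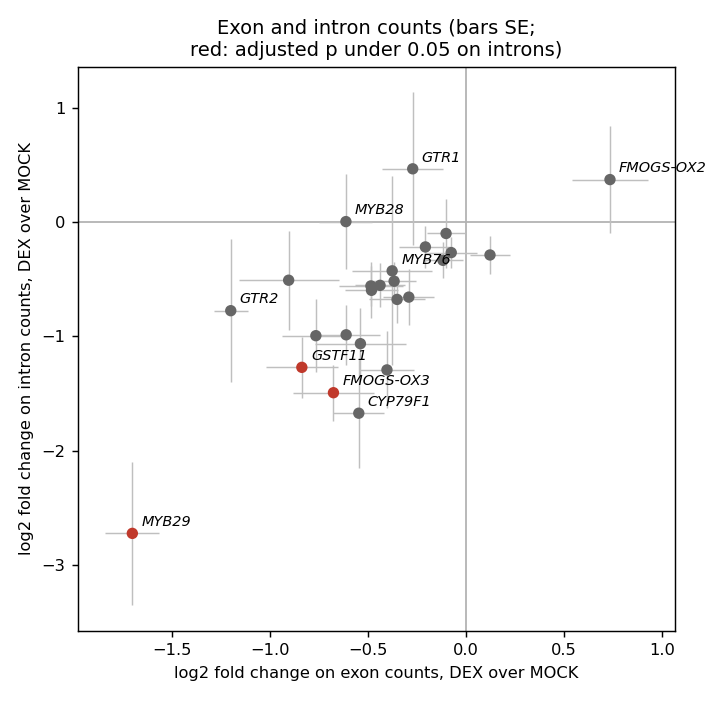
Log2 fold change (DEX over MOCK) on exon counts (x axis) and on intron counts (y axis) for the 25 genes tested on both, with bars of 1 SE and red for an adjusted p under 0.05 on introns. MYB29, GSTF11 and FMOGS-OX3 are red, 22 genes lie below 0 on the y axis, and the bars are wide for MYB28, MYB76, GTR1 and GTR2.

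The other genes of glucosinolate metabolism were read from the same test in 6 lists of 75 genes, of which 71 were tested. In all, 17 were lower and 1 was higher, against 3.58% and 1.09% of all genes, and 35 were lower at an unadjusted p under 0.05, against 11.8% of all genes. With the replicate block 7 were lower (UMAMIT30, UMAMIT29, GTR3, CYP81F4, IGMT5, SULTR1;2 and MYC4), the other 10 having adjusted p from 0.0516 to 0.0987 (edgeR). Leaving out DEX replicate 2, MOCK replicate 2 or MOCK replicate 1 gave 4, 5 and 9. Calls over all genes fell as well, to 2.11% lower with the replicate block. They fell to 0.977%, 0.958% and 1.65% lower without DEX replicate 2, MOCK replicate 2 and MOCK replicate 1. Of 9 genes of late modification and export 4 were lower, with a median of -0.75. They were the exporters UMAMIT30, with 8.08, 7.61 and 19.7 CPM in DEX libraries 1, 2 and 3 and 23.0, 19.0 and 38.3 CPM in MOCK libraries 1, 2 and 3 (log2 fold change -1.27, adjusted p = 0.00347), and UMAMIT29 (-1.15, adjusted p = 0.00777), the importer GTR3 (-0.94, adjusted p = 0.0118) and the cytochrome b5 CB5C (-0.69, adjusted p = 0.0444, all edgeR). UMAMIT30 was lower with DEX within each run.

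Of 16 tested indole glucosinolate genes, which start from tryptophan in place of methionine, 6 were lower and 0 higher, with a median of -0.44. The shares of all genes were 3.58% and 1.09%. At an unadjusted p under 0.05, 12 were lower and 0 higher, against 11.8% of all genes lower. CYP81F4 and IGMT5, which add the methoxy group to the indole nitrogen, had log2 fold changes of -1.51 (adjusted p = 0.00473) and -1.37 (adjusted p = 0.0108), and the entry enzymes CYP79B3 and CYP79B2 had -0.80 (adjusted p = 0.0217) and -0.77 (adjusted p = 0.0231, all edgeR). CYP81F4 had 9.33, 6.0 and 91.3 CPM in DEX libraries 1, 2 and 3 and 20.5, 23.3 and 256 CPM in MOCK libraries 1, 2 and 3, lower with DEX in both runs and higher in run 2 than in run 1 in both treatments. Run 2 was higher than run 1 for 9 of 31 aliphatic members, against all 16 tested indole genes (no test of the difference). Root markers were higher in run 2 as well, and their part in this was not tested.

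Of 17 tested genes of sulfate uptake, assimilation and PAPS supply 2 were lower and 0 higher, against 3.58% and 1.09% of all genes. At an unadjusted p under 0.05, 9 were lower and 0 higher, against 11.8% of all genes lower, and the median was -0.48. The 2 genes that passed were the kinase APK2, which makes the sulfate donor PAPS (log2 fold change -0.70, adjusted p = 0.0373), and the sulfate transporter SULTR1;2 (-0.83, adjusted p = 0.0119, edgeR). Of 13 tested breakdown genes 4 were lower, the nitrilases NIT1 (-0.56, adjusted p = 0.0305) and NIT3 (-0.56, adjusted p = 0.0464) and the nitrile specifiers NSP1 (-1.05, adjusted p = 0.0470) and NSP4 (-0.92, adjusted p = 0.0470), and 1 was higher (edgeR). The higher one was ESM1, which favours isothiocyanates over nitriles, with 66.2, 53.9 and 61.8 CPM in DEX libraries 1, 2 and 3 and 25, 37.9 and 27.1 CPM in MOCK libraries 1, 2 and 3. The ESM1 groups did not overlap, and its log2 fold change was 1.02 ± 0.17 (SE, adjusted p = 0.0241, edgeR), which did not pass when DEX replicate 1 was left out (adjusted p = 0.0811), nor without replicate 3 of DEX (0.108) or of MOCK (0.113).

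At an unadjusted p under 0.05, 3 of 8 other regulators were lower and 0 higher, against 11.8% of all genes lower. After adjustment 1 was lower and 0 higher, against 3.58% and 1.09% of all genes, and the list median was 0.08. The lower one was MYC4, a bHLH partner of these MYB factors, with 15.1, 13.3 and 9.0 CPM in DEX libraries 1, 2 and 3 and 22.5, 26.1 and 14.0 CPM in MOCK libraries 1, 2 and 3 (log2 fold change -0.73 ± 0.11 SE, adjusted p = 0.0111, edgeR). MYC4 was lower with DEX within each run. None of the 8 genes of leucine synthesis and the BCAT family, relatives of the elongation enzymes, passed (0 by edgeR). At an unadjusted p under 0.05, 0 were lower and 3 higher, and DESeq2 and limma-voom each called 1 higher. Over all genes, 1576 of 21934 were higher at that threshold, 590 of 22386 by DESeq2 and 315 of 21934 by limma-voom. BCAT2 had a log2 fold change of 0.75 ± 0.19 (SE, adjusted p = 0.0754, edgeR). In run 1 alone it was called higher (1.02 ± 0.14 SE, adjusted p = 0.0149, edgeR), as were 0.748% of all genes. A log2 fold change above 0 was seen for 1 of the 9 elongation members, against 7 of these 8 genes, whose median was 0.16. Over all genes such a value was seen for 11125 of 21934. IPMS1, the leucine counterpart of the MAM synthases, had 0.16 ± 0.10 (SE, adjusted p = 0.465, edgeR).

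**Figure D5:**
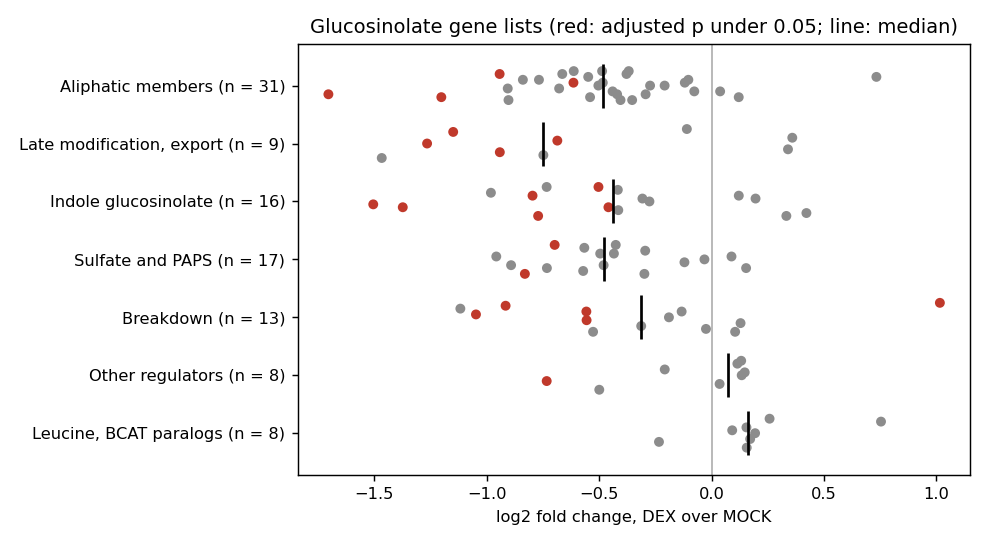
Log2 fold change (DEX over MOCK, x axis) of each tested gene in the aliphatic set and in the 6 related lists (y axis), with red for an adjusted p under 0.05 and a black line at each median. The medians of the aliphatic, late modification, indole, sulfate and breakdown lists lie below 0, those of the other regulators and of the leucine and BCAT paralogs above it, and the single red point right of 0 is ESM1.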

How the data were processed

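RNA-seq libraries of 6 seedling samples were made with a TruSeq RNA kit, per the labels, a kit that is unstranded. The authors deposited raw counts for every gene, split into exons and introns and summed, beside a gene length in bases (another unit), per the file headers. The submitters' processing notes name STAR and DESeq2 with no version, and no source used here names the counter, the build or the annotation. Of exon counts from 1 to 20, 16.6% to 25.8% were odd; whether both mates of a pair were counted was not tested.

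Exon counts of all 38194 loci entered edgeR 4.0.16 in R 4.3.3: filterByExpr (minimum count 10, minimum total 15), TMM scaling, a robust quasi-likelihood fit with run and treatment as terms, an F-test and Benjamini-Hochberg adjustment over 21934 genes at 0.05. All 31 members passed the filter. Run 1 alone, the run by treatment term and intron counts were fitted the same way. Alternatives were DESeq2 1.42.0, limma-voom (limma 3.58.1), other scalings and filters, a replicate block, no run term, exon plus intron counts and each library left out.

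The members and lists were chosen with earlier results of these data known. Values per library are given for members that passed and for MYB28, MYB29, MYB76, GTR1, GTR2, MAM1, MAM3, CYP79F1 and CYP79F2, and related lists name up to 4 genes that passed, by smallest adjusted p. FMOGS-OX2, FMOGS-OX4, AOP3, IPMS1, BCAT2, the intron counts shown and the last of the breakdown genes were chosen after their values were seen. Sequences were limited to 4 genes, so MYB76 is left out.

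Deviations from the group means correlated between same-numbered libraries (r over genes 0.627, 0.607 and 0.879 for replicates 1, 2 and 3), which meets the rule for pairing, but DEX replicate 1 correlated more with MOCK replicate 2 (0.688), so the pairing seen is by run. No library duplicated another (lowest chi-square per degree of freedom 28.5, MOCK 1 against MOCK 2). The value was 262 for DEX 1 against DEX 2, above the 112 to 161 of run 1 DEX against run 1 MOCK libraries. By this measure the run 1 DEX libraries differed more from each other than from the run 1 MOCK libraries. All 31 identifiers matched RefSeq TAIR10.1, 23 with equal exonic length, and 8 members share exonic bases with another locus.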

Additional observations from a re-analysis of the deposited data

How the results depend on the processing

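The number of members lower with DEX, 4 with the settings of the report, was 4 with RLE scaling, 3 with library totals only, 5 with no filter, 7 with a filter of 1 CPM in 3 libraries, 17 with DESeq2, 8 with limma-voom, 0 with no run term, 16 in run 1 alone and 5 on exon plus intron counts. With the replicate block it was 3, and the block ended the call of MYB28. Leaving out a library gave 2 to 16, 2 for each run 1 library (replicates 1 and 2 of DEX and of MOCK) and 16 for each run 2 library (replicate 3 of DEX or of MOCK). Of all genes, 3.58% were lower in the main fit, 3.48% with RLE scaling, 2.69% with library totals only and 3.29% with no filter. The share was 4.27% with the 1 CPM filter, 6.5% with DESeq2, 4.59% with limma-voom and 2.11% with the replicate block. It was 0% with no run term, 2.43% in run 1 alone, 3.56% on exon plus intron counts and 0.958% to 3.87% with a library left out. The number of members higher, 0, was 1 with DESeq2 and 1 with limma-voom. In each of these settings 27 to 29 members were below 0, and the median over all genes lay between -0.01 and 0.05.

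The related genes lower, 17, were 11 with library totals only, 28 with DESeq2, 7 with the replicate block, 0 with no run term and 4 to 17 with a library left out (4 without DEX replicate 2, 5 without MOCK replicate 2, 9 without MOCK replicate 1). The 1 higher was 2 with DESeq2, 2 with limma-voom, 0 with no run term and 0 to 1 with a library left out (0 without DEX replicate 1). ESM1 did not pass without replicate 3 of DEX or of MOCK, so the gene counted there was another. Members lower on introns, 3, were 7 with no filter. Members differing between runs, 19, ranged from 16 to 22 with a library left out, and the 0 members with a run by treatment difference remained 0.

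Signs turned for 3 members. FMOGS-OX5 was 0.013 in run 1 alone and -0.14 to 0.015 with a library left out, above 0 without either run 2 library. AOP2 was -0.40 in run 1 alone, -0.10 on exon plus intron counts and -0.41 to 0.27 with a library left out, below 0 without either run 2 library. MAM1 was -0.27 to 0.022 with a library left out, above 0 without DEX replicate 2. The cause of these differences was not tested. Run 2 has 1 library a treatment, so its spread is taken from run 1, and AOP2, at most 1.36 CPM, and the intron counts of MYB29, GTR1 and GTR2 limit precision by depth.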
